A study of Mus musculus with 9 samples.

Results

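Promoter windows lying inside protein-coding genes, away from any annotated 5' end, were compared between HPC7 cells carrying Snai1 and HPC7 cells carrying an empty vector. HPC7 is a line of mouse hematopoietic progenitors that depends on stem cell factor for growth. In one group the cells carried a MIG retroviral vector for FLAG-tagged wildtype Snai1 (Snai1) and in the other an empty retroviral vector (EV), with 3 ATAC-seq libraries per group. A mutant, mut5Snai1, made up the remaining 3 of the 9 libraries and was not analysed here. ATAC-seq measures how readily the Tn5 transposase cuts and tags DNA, so a higher value means more open chromatin. Nothing in the labels says whether a group's libraries stem from independent transductions, so the authors' p-values reflect variation among libraries that could be technical.

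Of the 10271 windows in the authors' deposited table, 1267 were members of this class, in 1265 genes, and 8955 lay at an annotated 5' end. A window's start site and strand were read from its width, since the wider windows run from 1000 bp before to 1000 bp past a plus-strand start in genome coordinates, and the narrower ones from 100 bp below to 1000 bp above a minus-strand start. A member had no RefSeq gene of any biotype with its 5' end on that strand within 1 kb of the start site, and exactly 1 protein-coding gene spanning it on that strand. The remaining 49 windows fitted neither description. The rule itself used positions and annotation and no measured value, though it was chosen with earlier results of these data known. For 202 members the strand of the spanning gene was not listed in the annotation used, and the gene was taken to lie on the window's strand.

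Many mammalian genes can be transcribed from more than 1 start. An internal promoter can drop the first exons of the transcript, and with them an N-terminal stretch of the protein, or it can change only the leader, and different cell types often use different starts of the same gene. Blood regulators such as Runx1, Gata2 and Mecom are textbook cases. Snai1 is a zinc finger repressor of the SNAG family that binds the E-box CAGGTG and recruits histone deacetylases and the demethylase Lsd1.

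The name "alternative promoter" fitted the annotation for most members but not all. The start site was exactly the start of a RefSeq transcript of the spanning gene in 810 members and lay 1 to 1000 bp from one in another 196. In 59 members the nearest listed start of the gene was over 1000 bp away, and in 202 no start was listed. The table held a single window for 1254 of the 1267 members' genes, so for most genes the window inside is the only promoter measured, and it may be the gene's main start in these cells. The members began a median of 3947 bp inside the gene (quartiles 1804 and 12194 bp, range 1004 to 636437 bp), and 62.0% lay in the first 25 percent of its length. The annotation used lists no exons, so whether a start lies in an exon or an intron was not analysed here.

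Among members called in the authors' deposited table whose start is a listed transcript start, the sequences of the 3 largest increases and the 3 largest decreases are shown, because these starts carry the strongest changes. They run from 250 bases before to 50 bases from the start (RefSeq, GRCm38.p6, the same coordinates as mm10), 5' to 3' on the gene's strand, with each CpG in capitals. CpG-dense promoters are typical of broadly active genes and CpG-poor ones of cell-type-specific genes.
Axin2 (chr11:108920099-108920398, plus strand, change 4.87): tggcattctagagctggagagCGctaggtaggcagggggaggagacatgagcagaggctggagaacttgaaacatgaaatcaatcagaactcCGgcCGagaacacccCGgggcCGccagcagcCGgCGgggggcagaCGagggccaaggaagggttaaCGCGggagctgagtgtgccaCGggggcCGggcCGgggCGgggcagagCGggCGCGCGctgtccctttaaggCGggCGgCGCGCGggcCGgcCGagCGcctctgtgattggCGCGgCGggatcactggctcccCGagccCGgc
Sec24d (chr3:123267246-123267545, plus strand, change 3.60): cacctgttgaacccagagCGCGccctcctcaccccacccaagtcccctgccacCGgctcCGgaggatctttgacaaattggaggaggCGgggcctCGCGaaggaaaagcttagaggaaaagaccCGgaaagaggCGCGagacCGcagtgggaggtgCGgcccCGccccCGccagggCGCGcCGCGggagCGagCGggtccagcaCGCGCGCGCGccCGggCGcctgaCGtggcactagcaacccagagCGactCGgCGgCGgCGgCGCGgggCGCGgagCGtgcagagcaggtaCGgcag
Rbms1 (chr2:60881389-60881688, minus strand, change 3.25): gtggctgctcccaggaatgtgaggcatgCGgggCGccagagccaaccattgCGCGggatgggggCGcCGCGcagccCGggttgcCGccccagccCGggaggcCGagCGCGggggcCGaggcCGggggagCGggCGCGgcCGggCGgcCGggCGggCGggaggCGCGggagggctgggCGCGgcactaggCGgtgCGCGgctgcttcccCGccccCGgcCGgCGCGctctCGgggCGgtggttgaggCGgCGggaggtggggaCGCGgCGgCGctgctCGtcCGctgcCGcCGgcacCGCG
Cbx7 (chr15:79932597-79932896, minus strand, change -3.07): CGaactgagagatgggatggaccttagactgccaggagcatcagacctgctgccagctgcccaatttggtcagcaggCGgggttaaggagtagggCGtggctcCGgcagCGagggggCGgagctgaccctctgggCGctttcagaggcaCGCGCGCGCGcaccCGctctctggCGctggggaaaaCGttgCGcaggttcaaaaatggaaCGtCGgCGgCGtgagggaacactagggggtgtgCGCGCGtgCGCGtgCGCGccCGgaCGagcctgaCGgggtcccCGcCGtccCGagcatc
C1qtnf6 (chr15:78529602-78529901, minus strand, change -3.06): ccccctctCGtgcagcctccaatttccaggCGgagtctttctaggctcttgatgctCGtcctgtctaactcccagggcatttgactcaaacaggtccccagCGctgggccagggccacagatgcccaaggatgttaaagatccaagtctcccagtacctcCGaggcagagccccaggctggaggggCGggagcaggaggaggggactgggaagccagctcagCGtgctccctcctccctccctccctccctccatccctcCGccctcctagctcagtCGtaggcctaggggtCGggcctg
Mllt3 (chr4:87806274-87806573, minus strand, change -2.74): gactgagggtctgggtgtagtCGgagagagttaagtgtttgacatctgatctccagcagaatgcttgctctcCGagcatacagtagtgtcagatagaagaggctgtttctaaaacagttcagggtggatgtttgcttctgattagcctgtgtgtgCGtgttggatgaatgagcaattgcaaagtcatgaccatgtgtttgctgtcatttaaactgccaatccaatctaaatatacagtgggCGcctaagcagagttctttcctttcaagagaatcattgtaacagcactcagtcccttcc

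The promoter sequences of Axin2, Sec24d, Rbms1 and Cbx7 are CpG-dense, with 31, 39, 49 and 33 CpGs and an observed over expected ratio between 0.89 and 1.01. Those of C1qtnf6 and Mllt3 hold 10 and 4 CpGs, with ratios of 0.33 and 0.27. The Sec24d sequence opens with the E-box, read as CACCTG, and the other 5 hold no CAGGTG on either strand within these letters.

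The largest gains included regulators of signalling and transcription and genes of transport. Axin2, a scaffold of the beta-catenin destruction complex and a target of Wnt signalling, had a log2 concentration of 8.98 in Snai1 and 4.11 in EV at a listed start on chromosome 11 (mm10, window 108919349 to 108921349; change 4.87 with an implied SE of 0.23, FDR 1.34e-92 in the authors' deposited table). Log2 concentration is DiffBind's term for the log2 of the normalized reads in a window, given here as the authors' group value with no value per library. The implied SE is the size of the change over the z value that matches its deposited p-value. Sec24d, a cargo adaptor of the COPII coat, had 8.30 in Snai1 and 4.70 in EV. Tfap2a, a transcription factor of neural crest and epithelium, had 7.24 in Snai1 and 3.97 in EV, at a window 3338 bp from the nearest listed start. Rbms1, an RNA-binding protein gene, had 6.90 in Snai1 and 3.65 in EV, with the widest error of the largest gains (change 3.25 with an implied SE of 0.65, FDR 7.66e-06 in the authors' deposited table). All 4 of these windows lay in the least open decile of the table, by log2 concentration over both groups.

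The next gains were smaller. Slc7a11, the cystine and glutamate exchanger, had 8.77 in Snai1 and 6.49 in EV (change 2.28 with an implied SE of 0.16, FDR 4.16e-46 in the authors' deposited table). Leaving out a predicted gene, Glcci1 (change 1.56) and Vopp1 (1.43) followed. Rhobtb1, which encodes an atypical small GTPase with BTB domains, reached 11.25 in Snai1, against 10.06 in EV, and is the most open window among the 10 largest gains. Tbxas1, which encodes thromboxane A synthase of platelets and macrophages, had 9.68 in Snai1 and 8.68 in EV at a start 54827 bp inside the gene.

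**Figure D1:**
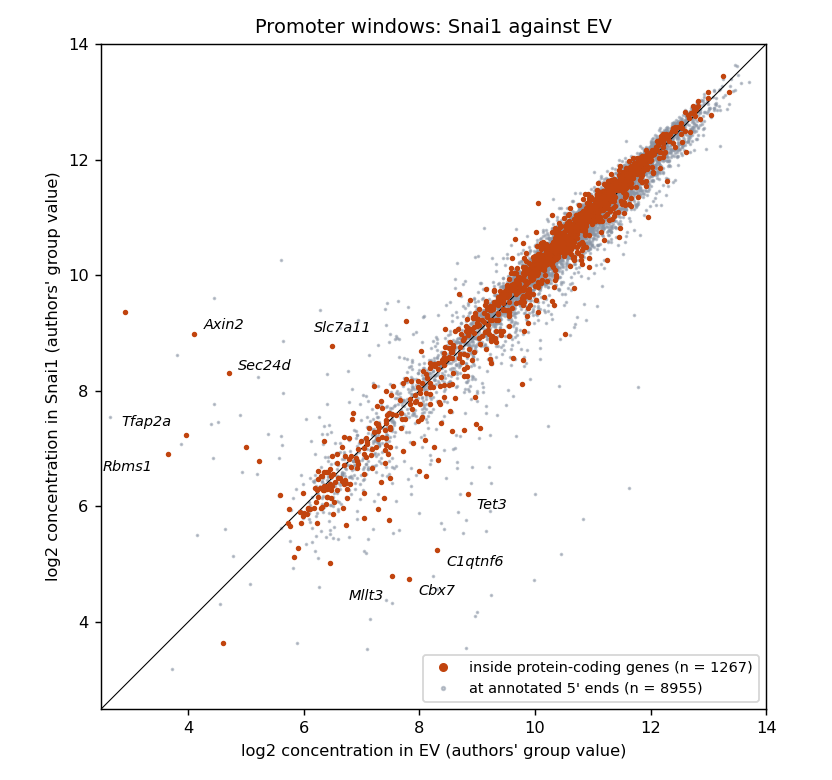
Log2 concentration of each promoter window in Snai1 (vertical) against EV (horizontal), both the authors' group values; large points are the 1267 windows inside protein-coding genes and small points the 8955 at annotated 5' ends, and the line marks equality. Most windows of both kinds lie along the line, and the named windows inside genes leave it mainly where EV or Snai1 is low, Axin2 at 8.98 in Snai1 and 4.11 in EV.

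The largest losses included several chromatin genes. Cbx7, a chromodomain subunit of Polycomb complex PRC1, had 4.75 in Snai1 and 7.82 in EV at a start 38497 bp inside the gene (change -3.07 with an implied SE of 0.23, FDR 1.70e-38 in the authors' deposited table). Mllt3, which encodes the histone reader AF9 and is a fusion partner of MLL in leukemia, had 4.79 in Snai1 and 7.53 in EV (change -2.74, implied SE 0.27). Tet3, a dioxygenase that oxidizes methylated cytosine, had 6.21 in Snai1 and 8.84 in EV (change -2.63 with an implied SE of 0.17, FDR 4.75e-53 in the authors' deposited table). Smarcd3, a subunit of the SWI/SNF remodeller, had 5.77 in Snai1 and 7.48 in EV.

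The other large losses were at genes of secretion, signalling and scaffolding. C1qtnf6, a secreted protein related to complement C1q, had 5.25 in Snai1 and 8.31 in EV (change -3.06, FDR 2.1e-45 in the authors' deposited table). Csf3r, which encodes the G-CSF receptor of neutrophil precursors, had 7.36 in Snai1 and 9.05 in EV, and Sh2b2, an adaptor of receptor tyrosine kinases, had 8.11 in Snai1 and 9.77 in EV. Frmd4a, a scaffold of epithelial polarity (change -1.60), Dusp3, a phosphatase that acts on MAP kinases (-1.55), and the zinc finger gene Zfp948 (-1.54) complete the 10. Zfp948 was the most open of them, with 8.98 in Snai1 and 10.52 in EV.

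Across all 1267 members, 392 (30.9%) passed FDR 0.05 in the authors' deposited table, against a background of 29.9% over all windows. Of them, 250 (19.7%) were higher in Snai1, with 19.6% over all windows, and 142 (11.2%) were lower, with 10.3% over all windows. The other 875 members did not pass. At FDR 0.01, 159 members were higher and 99 lower, with 11.2% and 7.74% over all windows. Windows at 5' ends had nearly the same shares, 19.6% higher and 10.2% lower. The median change was 0.09 inside genes (quartiles -0.07 and 0.19), 0.08 at 5' ends (quartiles -0.05 and 0.18) and 0.08 over all windows. The typical implied SE of a member was 0.09. No test was made between the kinds of window, since windows are not replicates and neighbours share their chromatin. These are bulk libraries, in which fewer open cells and less opening per cell cannot be told apart.

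Most called changes were small. The median was 0.28 among the higher members and -0.46 among the lower ones, against 0.26 and -0.40 at 5' ends. A change of at least 1 log2 unit in either direction was found in 35 members (2.76%) and in 1.91% of windows at 5' ends. Of the 35, 11 were higher (0.87%, with 0.70% over all windows) and 24 were lower (1.89%, with 1.31% over all windows). Among the windows changed by at least 2 units (0.64% of all), 11 were members, 7 higher and 4 lower. Of such windows at 5' ends, 18 were higher and 36 lower. The members changed this much are few, and the directions were not tested. At 1 unit or more both kinds leaned to losses, with 61 of 8955 windows at 5' ends higher and 110 lower.

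The balance of gains and losses depended on the centre. Of the called members 63.8% were higher as deposited. With the median of all windows (0.08) subtracted and the change tested again against the implied SE, 112 members were higher and 182 lower (38.1% higher), with 7.21% and 13.8% over all windows. With the median of windows at 5' ends within 5 Mb subtracted, 92 of 1244 members were higher (7.40%, with 5.29% over all windows) and 117 lower (9.41%, with 8.40% over all windows).

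Windows inside genes were less open than those at 5' ends. Their median log2 concentration over both groups was 10.50, against 10.85 at 5' ends, and 18.9% of them fell in the lowest decile of the table, against 8.62% of windows at 5' ends. Of the 35 members changed by at least 1 unit, 29 lay in the lowest decile. This is partly built in, because deciles were cut on the value over both groups, which the lower group pulls down. Vopp1, for example, had 9.20 in Snai1, above the decile's edge of 8.81, but 8.65 over both groups. Within that decile, 12.1% of members and 14.6% of windows at 5' ends changed by at least 1 unit, and above it 0.58% and 0.71%. Calls in the lowest decile leaned to losses for both kinds, with 9.21% of members higher and 19.2% lower, against 13.1% higher and 22.0% lower at 5' ends. Errors were widest in this decile (median implied SE 0.19 for members). In the seventh decile 31.8% of 107 members and 21.6% of windows at 5' ends were higher. In the top decile the shares were 9.20% of 87 members and 15.4%, so the order of the 2 kinds differed between deciles. These deciles were picked after the values were seen. In others the shares were close, such as the second (15.0% and 15.1%) and the ninth (21.5% and 20.5%).

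**Figure D2:**
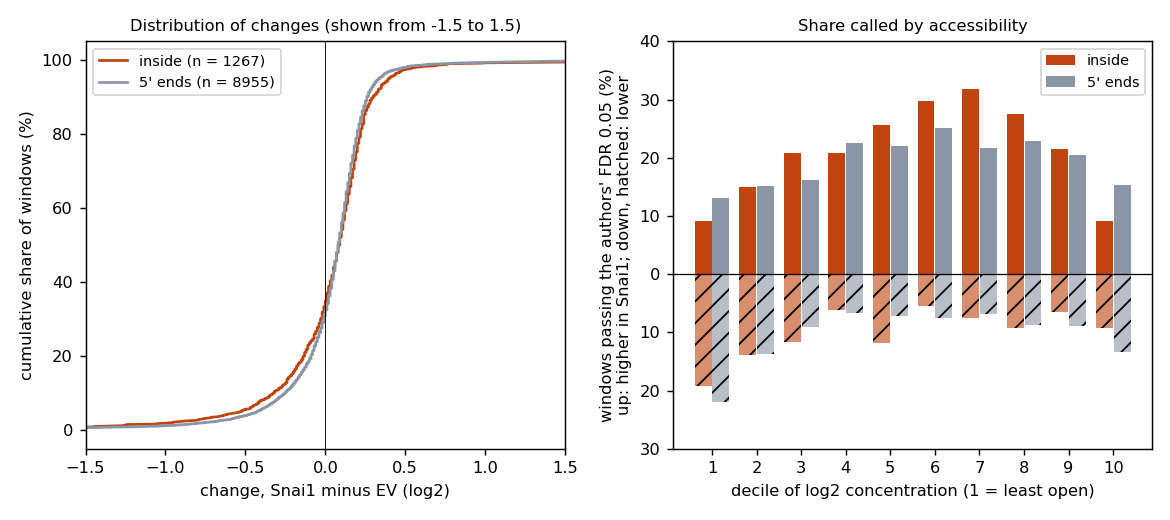
Left, cumulative share of windows (%) by change in log2 concentration, Snai1 minus EV, for windows inside genes and at 5' ends, with the extremes beyond the axis. Right, share of windows (%) passing the authors' FDR of 0.05 in each decile of log2 concentration, higher in Snai1 above the zero line and lower below it (hatched), inside genes left of 5' ends; the cumulative curves nearly coincide, with medians of 0.09 and 0.08, and losses are commonest in the least open decile of both kinds.

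For the gene lists that follow, the background over all windows was 19.6% higher and 10.3% lower. Among genes for chromatin regulators, 27 had a window inside, of which 3 rose, 5 fell and 19 did not pass (median change 0.05). The falls were at Cbx7, Tet3 and Smarcd3, at Satb1, a nuclear matrix organizer of lymphoid and stem cell chromatin (7.33 in Snai1 and 8.77 in EV, FDR 5.30e-19 in the authors' deposited table), and at Kdm2a (-0.32), a demethylase of histone H3. The rises were smaller, at the putative demethylase gene Jmjd1c (0.42), at Baz2b (0.43) and at Brd3 (0.18), both bromodomain genes. The windows of Dnmt1 (change 0.02, FDR 0.82) and Dnmt3a (change -0.03, FDR 0.769 in the authors' deposited table), which encode DNA methyltransferases, were among those not called. At the 5' ends of genes on the same list, 16 of 101 windows were higher and 8 lower. With the local median subtracted, 1 was higher and 5 lower, Brd3 no longer passed and Baz2b had no local value.

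Among blood transcription factors, 21 had a window inside, and 5 rose, 3 fell and 13 did not pass (median 0.15). At 5' ends of genes on this list, 11 of 35 windows were higher and 6 lower. Mecom, a stem cell regulator of the Evi1 locus, had 6.81 in Snai1 and 8.32 in EV at a listed start 496555 bp inside the gene (change -1.51 with an implied SE of 0.17, FDR 1.06e-17 in the authors' deposited table). Satb1 and Bcl11a, a repressor of fetal globin genes, also fell (Bcl11a had 10.27 in Snai1 and 10.79 in EV). Gata3, of T cell and stem cell programmes, rose by 0.39 (11.36 in Snai1, 10.97 in EV). Tal1, Gata2, Elf1 and Egr2 were the others that rose. Tal1, a basic helix-loop-helix factor needed for blood specification, had 10.86 in Snai1 and 10.45 in EV, and Gata2, a zinc finger factor of progenitors, had 10.47 in Snai1 and 10.22 in EV at a listed start 4773 bp inside the gene. With the local median subtracted, Gata2 (0.13) and Egr2 (0.12) no longer passed.

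On a list of genes known for alternative promoters, 17 had a window inside, with 6 higher, 2 lower and 9 not passing (median 0.15). It holds the extremes Axin2 and Tfap2a, and shares with the blood factors the called windows of Mecom, Bcl11a, Tal1, Gata2 and Elf1. Its 15 windows at 5' ends had 4 higher and 4 lower.

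Receptors and cytokine signalling genes had 10 windows inside, of which 4 rose and 4 fell (median -0.04). Their 53 windows at 5' ends had 12 higher and 5 lower. Csf3r fell most. Cd47, the signal that inhibits phagocytosis, was lower in Snai1, with 0.518 times the normalized reads of EV (change -0.95), but it lies on chromosome 16, where windows at 5' ends nearby were lower too, and its difference from their median was -0.07. Icam2, an adhesion molecule of leukocytes and endothelium, had 9.04 in Snai1 and 9.82 in EV (FDR 1.49e-10 in the authors' deposited table), and the inhibitory adaptor gene Sh2b3 changed by -0.47. Socs2, a feedback inhibitor of cytokine signalling, had 8.69 in Snai1 and 8.03 in EV. Itgav (0.35), Spn (0.34), which encodes the sialoglycoprotein CD43, and Selplg (0.27), the ligand of selectins, were the other rises, and of these Itgav and Spn no longer passed with the local median subtracted.

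Of 6 windows inside genes of Wnt, Notch, TGF-beta and Hedgehog signalling, Axin2 rose, the Notch ligand gene Dll1 fell (8.95 in Snai1, 9.56 in EV, FDR 1.34e-07 in the authors' deposited table) and 4 did not pass, among them Axin1 (FDR 0.309), the close relative of Axin2. At 5' ends of genes on this list, 4 of 45 windows were higher and 14 lower.

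Adhesion, cytoskeleton and EMT genes had 17 windows inside, with 3 higher, 3 lower and 11 not passing (median 0.07). Their 39 windows at 5' ends had 8 higher and 8 lower. Lmna, which encodes the nuclear lamins A and C, had 7.61 in Snai1 and 6.85 in EV (change 0.76, implied SE 0.20). The integrin gene Itgav had 11.45 in Snai1 and 11.10 in EV. Myo18a, an unconventional myosin, had 5.96 in Snai1 and 7.28 in EV (change -1.32, FDR 3.13e-07 in the authors' deposited table), and the focal adhesion gene Pxn (-0.33) and the matrix protease gene Mmp9 (-0.31) also fell. With the local median subtracted, Itgav no longer passed.

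Small GTPase regulators had 26 windows inside, with 4 higher, 2 lower and 20 not passing (median 0.06). Their 80 windows at 5' ends had 14 higher and 10 lower. The exchange factor genes Dock10 (11.06 in Snai1, 10.59 in EV) and Fgd3 (10.49 in Snai1, 10.12 in EV) rose, as did Dennd4b (0.22), which no longer passed with the local median subtracted. Rasgrp2, an activator of Rap1 in platelets and leukocytes, had 9.17 in Snai1 and 9.88 in EV (change -0.71, FDR 3.57e-12 in the authors' deposited table), and the GTPase-activating protein gene Arhgap23 changed by -0.64.

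Kinase and phosphatase genes had 22 windows inside, with 5 higher, 2 lower and 15 not passing (median 0.06). Their 124 windows at 5' ends had 16 higher and 20 lower. Fer, a cytoplasmic tyrosine kinase, had 10.63 in Snai1 and 9.65 in EV (change 0.98 with an implied SE of 0.12, FDR 6.71e-15 in the authors' deposited table). Ptpn22, a phosphatase that restrains lymphocyte receptor signalling, had 11.41 in Snai1 and 10.92 in EV. Dgka, a diacylglycerol kinase gene (0.39), Ulk4 (0.31) and Limk1 (0.21) also rose, whereas Map3k1 (-0.45) and Nek6 (-0.26) fell, and Limk1 no longer passed with the local median subtracted.

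**Figure D3:**
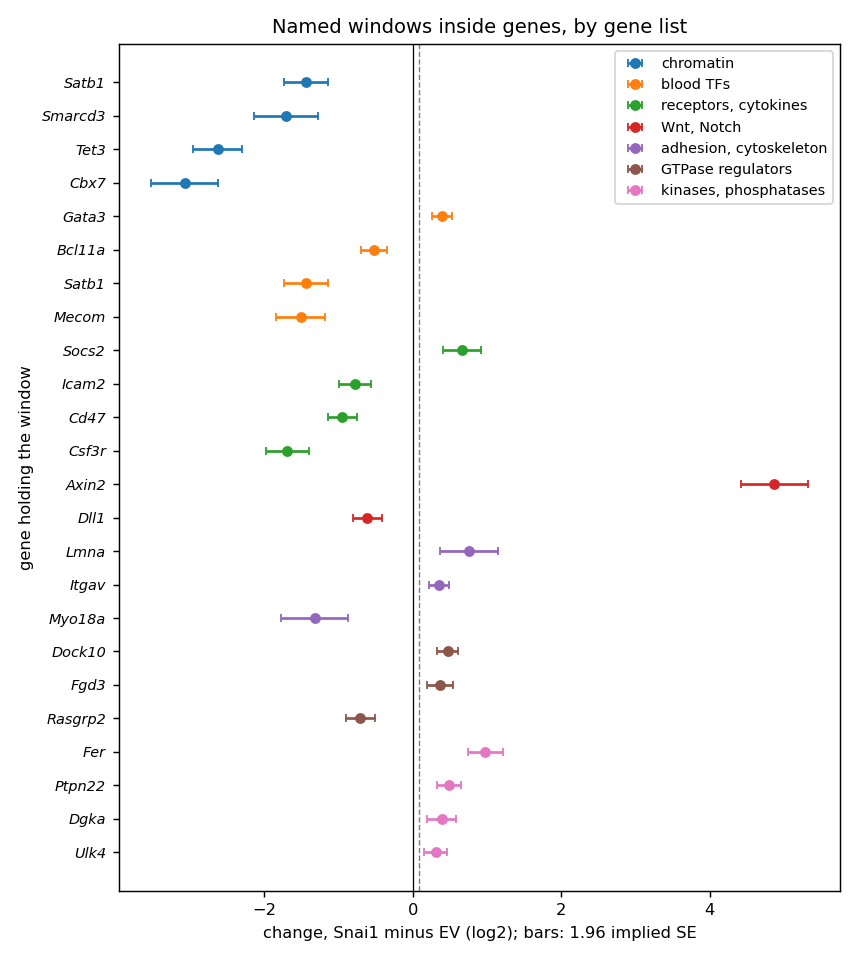
Change in log2 concentration, Snai1 minus EV, of the named windows inside genes, grouped by gene list and coloured by it; bars are 1.96 implied SE, the solid line marks 0 and the dashed line the median of all windows (0.08). The 4 chromatin windows shown lie between -3.07 and -1.44, the 4 kinase and phosphatase windows between 0.31 and 0.98, and Axin2 stands at 4.87; Satb1 appears on 2 lists.

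The label of the cells was checked against markers. Of 18 progenitor markers, 16 had a window of any kind, all with a log2 concentration of at least 9. Inside the gene lay 6 of these windows, of which Tal1, Spn and Gata2 rose and Lmo2, Fli1 and Spi1 did not pass. With the local median subtracted, only Tal1 still passed. The 10 progenitor windows at 5' ends had 3 higher and 2 lower (median change -0.04). Of 18 lymphoid markers 2 had a window, of 16 fibroblast and stromal markers 2, and of 16 epithelial markers 1, which lay at a 5' end and was lower in Snai1 (change -4.81). A log2 concentration of at least 9 was reached by 2 fibroblast and stromal markers, 0 lymphoid and 0 epithelial ones. The lowest decile of all windows ended at 8.81, so this level alone does not set progenitor markers apart from most windows. Inside genes, the lymphoid Zap70 (FDR 0.434) did not pass and the fibroblast Fap had 9.53 in Snai1 and 9.15 in EV (FDR 0.00367 in the authors' deposited table). Their part in the results was not tested.

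The typical change was similar at every distance inside the gene. The median was 0.10 for the 373 members that began 1 to 2 kb inside, 0.07 for the 338 at 2 to 5 kb and the 350 at 5 to 20 kb, 0.08 for the 118 at 20 to 50 kb, 0.09 for the 60 at 50 to 100 kb and 0.05 for the 28 beyond 100 kb. Openness fell with distance, with a median log2 concentration of 10.80 in the nearest bin and 9.48 in the farthest. The share changed by at least 1 unit was 1.61% in the nearest bin and 14.3% (4 of 28) in the farthest, where Mllt3, Mecom and Frmd4a lie. At the limit of 1 kb itself, the members Ercc1 (0.03) and Nrm (0.11) lay just inside and the windows of Atf5 (0.01) and Efcab11 (0.13) just outside.

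**Figure D4:**
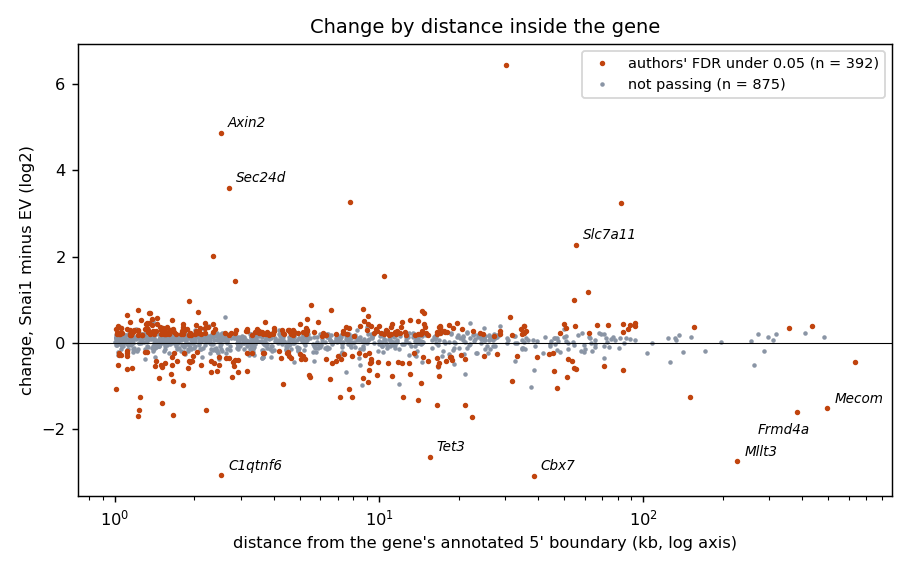
Change in log2 concentration, Snai1 minus EV, of the 1267 windows inside genes (vertical) against their distance from the gene's annotated 5' boundary (horizontal, kb, log axis); orange points passed the authors' FDR of 0.05 and grey points did not. The bulk stays near 0 at every distance, and single windows such as Axin2 (4.87) and Cbx7 (-3.07) stand far from it.

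The share called and the median change are given by how close the start lay to a listed transcript start. Of the 810 exact starts, 19.4% were higher and 10.7% lower (median 0.09). Of the 196 within 1000 bp of a listed start, 19.9% were higher and 12.2% lower (median 0.09). Of the 59 farther away, 18.6% were higher and 15.3% lower (median 0.07), and these were the least open, with a median log2 concentration of 9.15. Of the 202 with no listed start, 21.3% were higher and 10.9% lower (median 0.08). Changes of at least 1 unit were found in 3.58% of the exact starts (29 of the 35 such members), in 1.53% of those within 1000 bp, in 1.69% of those farther away and in 0.99% of those with no listed start.

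The starts inside genes were poorer in CpG than those at 5' ends. Over the 810 exact starts, the 300 bases of RefSeq sequence had a median CpG observed over expected ratio of 0.71, against 0.81 for 5803 windows at 5' ends with a listed start, and 62.3% against 79.9% had a ratio of at least 0.6. Among members, windows with a ratio under 0.3 had a median log2 concentration of 8.36 and those of at least 0.6 had 10.89. The share changed by at least 1 unit was 6.08% in the CpG-poorest members and 2.38% in the CpG-richest, against 3.90% and 1.38% at 5' ends.

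The E-box CAGGTG, searched on both strands (CACCTG on the other), stood in 140 of the 810 member sequences (17.3%), in 15.6% of those at 5' ends and in 20.2% of all 32851 listed starts of the same length. Of members with the E-box 15.0% were higher and 7.86% lower, and of those without it 20.3% were higher and 11.3% lower. At 5' ends, 18.2% with the E-box were higher and 13.3% lower, and 19.6% without it were higher and 10.1% lower. A match is a description of these letters and not a bound site, and the sequence covers less than the window.

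The change differed between chromosomes for both kinds of window. On chromosome 16, 4 of 35 members were higher (11.4%) and 25 lower (71.4%), with a median of -0.41. Windows at 5' ends there were close to this, with 16.1% higher, 66.2% lower and a median of -0.35. On chromosome 1, 4 of 76 members were higher (5.26%) and 23 lower (30.3%), with a median of -0.12. At 5' ends there 6.47% were higher and 38.8% lower, with a median of -0.15. On chromosome 15, 3 of 51 members were higher and 11 lower (21.6%), whereas 22.8% of windows at 5' ends were higher and 4.91% lower. On chromosome 12 the losses ran the other way, with 8.11% of 37 members lower and 25.7% of windows at 5' ends. These chromosomes were picked from 20 after the values were seen, and the contrasts were not tested. Cbx7 and C1qtnf6 are among the chromosome 15 losses.

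**Figure D5:**
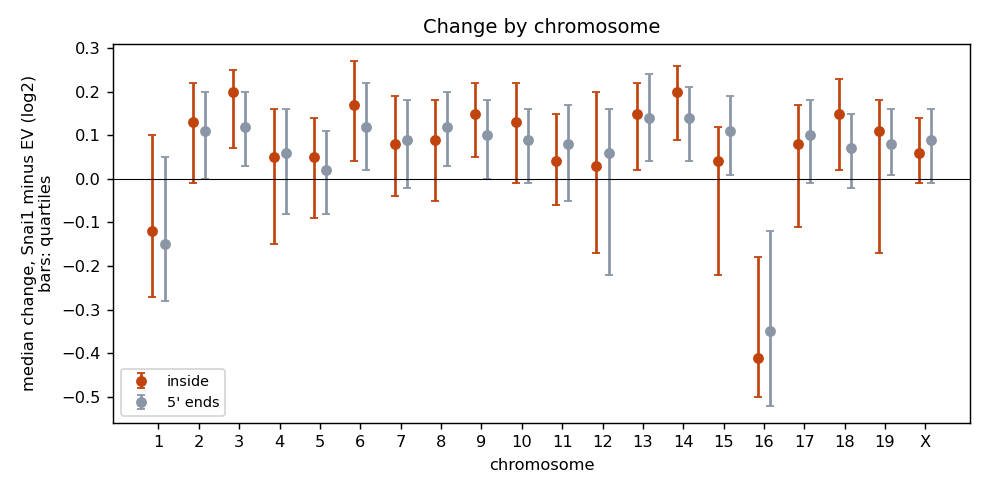
Median change in log2 concentration, Snai1 minus EV, by chromosome for windows inside genes (left of each pair) and at 5' ends (right); bars are quartiles over windows. Both kinds lie lowest on chromosome 16 (-0.41 and -0.35), and also below 0 on chromosome 1 (-0.12 and -0.15).

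Only 7 genes had both a window inside and a window at their own 5' end. In all 7 the window inside was the less open, by 0.31 to 4.31 log2 units. Zfp687, a zinc finger gene, differed most. This gene spans 21275 bp, and its start inside lay 18952 bp in, 18242 bp from the nearest listed start. Its window inside had 8.38 in Snai1 and 8.77 in EV (change -0.39, implied SE 0.12), and its 5' end, 18242 bp away, had 12.77 in Snai1 and 12.56 in EV (change 0.21, implied SE 0.09). It was the 1 pair whose ranges of 1.96 implied SE did not overlap. Overlapping ranges do not show that the changes of a pair are equal, and the differences themselves were not tested. Slc20a2 changed by -0.34 inside and 0.19 at the 5' end, Gpr146 by -0.47 and -0.05, Rmnd1 by -0.15 and 0.12, and Pcmt1 by 0.25 and 0.26. Ptgs1, which encodes cyclooxygenase 1, had 0.18 inside and 0.06 at the 5' end, and Ube2j2 had 0.16 and 0.04. The change was lower inside than at the 5' end in 5 of 7 genes, with a median difference of -0.27, but at Pcmt1 the difference was only -0.01. In the other lower ones, Zfp687, Slc20a2, Gpr146 and Rmnd1, the window inside lay in the least open decile. That of Ube2j2, where the change was higher inside, lay there too.

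A pair of genes had more than 1 window inside. Fam78a had one 3767 bp inside (9.93 in Snai1, 9.78 in EV) and one 23308 bp inside (6.44 in Snai1, 6.66 in EV), and neither passed (FDR 0.269 and 0.487 in the authors' deposited table). Trim11, whose strand was not listed, had windows on opposite strands 43 bp apart with changes of 0.22 and 0.20, so at most 1 of them is a start of Trim11. The most open members were Ppm1b (13.45 in Snai1, 13.25 in EV), Fam72a (13.17 in Snai1, 13.35 in EV), Gpr108, Srrm2 and Lrrfip1, and none of these passed, with FDR values between 0.0888 and 0.593 in the authors' deposited table.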

How the data were processed

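Per the labels, ATAC-seq libraries came from HPC7 cells with Snai1, mut5Snai1 or the empty vector, 3 each. The tools named per the submitters' processing notes are Bowtie2, DiffBind, fastp and Picard, with build mm10. The sources used here give no versions or settings, no peak caller, no shift for the Tn5 cut, no scaling and no depth per library.

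Per the file headers, the authors deposited log2 concentrations per group, a log2 fold (EV minus Snai1), a p-value and an FDR for each promoter window. The change used here is Snai1 minus EV of the 2 group values, which matched the deposited fold, sign turned, within 0.01. Of 10274 rows, 3 exact repeats were dropped. The table holds 0 columns of values per sample, so no test across libraries was run, and no SD or n can be attached to a value.

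Strands and transcript starts came from RefSeq promoter sequences (GRCm38.p6; 27025 genes with a listed start), with gene boundaries from the RefSeq gene table. A gene of unlisted strand counted on both strands. The implied SE took the median of its accessibility bin (20 bins) where the change was under 0.1 or the p-value was 0 or near 1. Re-tests divided the centred change by the implied SE, with Benjamini-Hochberg adjustment over all windows, and were tested on simulated data. Local centring needed at least 10 windows at 5' ends within 5 Mb.

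The members, gene lists and alternatives were chosen with earlier results of these data known. Named genes left out predicted ones and included the 10 largest called gains and losses. They also included the 4 or fewer called members of lowest FDR on each list, or the 2 of lowest p if none was called. All same-gene pairs, called or not, the 5 most open members and those nearest the 1 kb limit were named too. Other names were added after their values were seen. Results for some genes that this rule names are not reported here. Python 3.11.15, pandas 2.3.3, numpy 2.4.6, scipy 1.17.1 and matplotlib 3.10.9 were used.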

Additional observations from a re-analysis of the deposited data

How the results depend on the processing

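No paired analysis was possible because the table holds group values and no value per library, and no library could be left out for the same reason. The median change inside genes stayed between 0.07 and 0.10 under every choice of members, and was 0.01 with the median of all windows or the local median subtracted. Its difference from windows at 5' ends stayed between -0.01 and 0.02. The count of members called higher, 250 as reported, was 166 with a 2 kb limit from 5' ends (881 members), 159 at FDR 0.01, 112 with the median of all windows subtracted and 92 with the local median subtracted. In the wider, plus-strand windows alone 137 were higher and 74 lower, and in the narrower, minus-strand ones 113 and 68, each being part of the members. With a log2 concentration of at least 9, 94 of 1010 members were lower, against 142 of 1267 as reported. Above the lowest decile, a similar cut, 9.34% of members and 9.09% of windows at 5' ends were lower. With starts exactly at a listed transcript start, a choice made after seeing the data, 157 were higher and 87 lower of 810. The same-gene difference of -0.27 rests on 7 pairs. It was -0.14 over 6 pairs with a 500 bp limit, -0.14 over 6 pairs with spanning genes of listed strand only (also chosen after seeing the data), -0.42 over 5 pairs with 5' ends counted on either strand, 0.05 over 2 pairs with a log2 concentration of at least 9, -0.15 over 4 pairs in the wider windows and -0.42 for the single pair at a listed start. Of 59 named windows, 4 no longer passed with the median of all windows subtracted and 7 with the local median subtracted, which Fap and Rbms1 lacked. Fam72a, not called as deposited, passed with the median of all windows subtracted. Signs turned only at windows not called as deposited: Ercc1 (-0.05) and Srrm2 (-0.01) with the median of all windows subtracted, and Ercc1 (-0.02), Srrm2 (-0.04) and Fam72a (0.06) with the local median subtracted. Values in the least open decile have the widest errors, and changes against a low group value there rest on few reads.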
